A study of Homo sapiens with 4 samples.

Results

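The features described here are the expressed transcript clusters that carry no gene symbol on the Affymetrix Human Transcriptome Array 2.0, an array whose probes are grouped into transcript clusters, each meant to cover the RNA of 1 transcribed locus. A cluster belongs to them if the platform annotation used here gives it no symbol and if its deposited log2 value on each of the 4 arrays was at least 1 above that array's median of 23 antigenomic background rows, which are probes designed to match no human sequence. Rows with identical values on all 4 arrays were counted once. The rule left 9772 members, from 10307 passing rows among 39441 clusters without a symbol and 62540 transcript clusters in all.

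The RNA came from U2OS cells, a human osteosarcoma line, whose titles add the unexplained tag PLKO.1. There were 2 arrays of cells given nocodazole, labelled replicates 2 and 3, and 2 arrays of cells given the solvent DMSO, also labelled replicates 2 and 3. Both groups had been synchronised alike, by 24 h without serum and 24 h in thymidine, and were in drug-free medium for 3 h before 48 h of nocodazole or DMSO. The series title asks whether cells that slip out of a mitotic arrest express secreted factors of senescent cells, and the symbol-free clusters can be set beside that comparison.

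Transcript clusters without a symbol can be long non-coding RNAs, antisense RNAs, unspliced or unannotated pieces of known genes, or copies of repeated sequence, and the files do not say which a given cluster is. Nocodazole depolymerises microtubules and arrests dividing cells in mitosis, and during mitosis most transcription is shut down. Many non-coding RNAs are made near protein-coding genes, and some of them share a promoter with the neighbouring gene, so the order of clusters along a chromosome is of interest. A cluster with no symbol here is unnamed, not shown to lack a gene, and no sequence or position is given for any of them.

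The level rule was met by 26.1% of the clusters without a symbol, against 60.1% of the 23099 clusters with one. Of the clusters without a symbol, 23365 exceeded the threshold on 0 arrays, 2272 on 1, 1827 on 2, 1670 on 3 and 10307 on all 4. The background medians were 4.36 and 3.72 on nocodazole replicates 2 and 3, and 4.81 and 4.02 on DMSO replicates 2 and 3. The background rows themselves spread widely, from 1.11 to 12.1. On each array the highest of them read between 11.6 and 12.1, so a cluster that passes can lie within their range. The word expressed here means only that the level rule was met. The members' median deposited log2 value was 6.38 and 6.19 on the nocodazole arrays, against 6.86 and 6.57 on the DMSO arrays. Set above each array's own background, those medians were 2.03 and 2.47 with nocodazole, against 2.05 and 2.54 with DMSO, so the spacing between replicate labels was larger than that between treatments. The members were chosen by these deposited levels on all 4 arrays, so their levels are a description. The rule has an edge that many members lie close to: 3055 came within 0.5 of the threshold on at least 1 array, and 4528 would remain at a threshold of 2. Just inside it, TC16001554, TC03002781 and TC03002255 had a smallest distance to background of 1.0005, 1.002 and 1.002. Just outside it, TC03002771, TC07001901 and TC02002857 each had 0.9998. (Cluster ids are given without their common suffix.)

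The arrays did not share 1 distribution, and the DMSO arrays had the higher medians: the median change of the members, nocodazole minus DMSO, was -0.42 on the deposited log2 scale, and that of all 61190 distinct transcript clusters was also -0.42. Changes below are therefore those after quantile normalization of the 4 arrays, on the log2 scale and relative to that array-wide shift, unless the deposited scale is named. A member is said to have risen or fallen only where limma's Benjamini-Hochberg adjusted p, over all 61190 clusters, was under 0.05 in the same direction both after quantile normalization and on the deposited values. Because every array had to pass the level rule, a cluster that is near background in 1 group could not become a member, which keeps some of the widest changes out. In RNA from whole cultures, a change in the share of cells that make a transcript and a change in its amount per cell cannot be told apart. Markers gave the cells the profile of their label in part: 6 of 7 mesenchymal and bone genes passed the level rule on all 4 arrays (RUNX2, a transcription factor of bone cells, passed on 3), as did 2 of 4 epithelial genes (KRT5 and KRT19, both keratins) and 0 of 3 haematopoietic genes found.

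With nocodazole, 9 members rose and 2 fell. The 9 are 0.0921% of the members, and 0.0637% of all clusters rose by the same rule. The 2 are 0.0205% of the members, and 0.0196% of all clusters fell. Of the 13803 expressed clusters with a gene symbol, 11 rose and 8 fell. By size alone, 25 members (0.256%) were higher and 7 (0.0716%) lower by a log2 change of 1 or more. Of all clusters, larger shares were, 0.466% and 0.315%. At an unadjusted limma p under 0.05, 562 members were higher (5.75%) and 384 lower (3.93%), where the shares of all clusters were 3.61% and 3.73%. For the expressed clusters with a symbol the balance ran the other way, with 2.86% higher and 5.55% lower. The difference between those shares was not tested.

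The member with the largest rise was TC11003313, of chromosome 11, with normalized log2 values of 11.02 and 10.68 on the nocodazole arrays, against 8.05 and 8.12 on the DMSO arrays. Its log2 change was 2.76 ± 0.14 (standard error, SE, with 2 arrays per group; limma adjusted p = 0.00111), which is 6.79-fold, and its deposited change was 2.33. A neighbour from the same stretch of ids, TC11003311, had 7.84 and 7.67 with nocodazole, against 6.0 and 6.21 with DMSO, a log2 change of 1.65 ± 0.16 (limma adjusted p = 0.0145). In both, the nocodazole arrays lay well above the DMSO arrays. Between the 2 lies TC11003312, which is not a member because it passed the level rule on only 1 of the DMSO arrays. It had 7.74 and 7.99 with nocodazole, against 5.24 and 5.06 with DMSO, a change of 2.72 ± 0.17 (limma adjusted p = 0.00231). The 3 clusters with consecutive ids were thus higher with nocodazole, and the clusters with the next id on either side, TC11003310 and TC11003314, lay below the background median on all 4 arrays.

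TC05002798, of chromosome 5, stood at 9.13 and 9.42 on the nocodazole arrays, against 7.17 and 6.53 on the DMSO arrays, and rose by a log2 change of 2.43 ± 0.21 (limma adjusted p = 0.0107), or 5.37-fold. Its DMSO arrays differed from each other more than its nocodazole arrays did, without overlap between the groups. Its neighbours on both sides are members too and had changes of -0.09 and 0.34, with limma adjusted p of 0.994 and 0.80.

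TC06003084, of chromosome 6, had 9.52 and 9.56 with nocodazole, against 7.26 and 7.80 with DMSO, a 4.03-fold rise (limma adjusted p = 0.0118). TC11002587, of chromosome 11, had 9.13 and 9.11 with nocodazole, against 7.08 and 7.29 with DMSO, a 3.83-fold rise (limma adjusted p = 0.0031). Its neighbour TC11002588 is a far brighter member, with deposited values of 11.9 and 12.1 with nocodazole, against 12.5 and 12.2 with DMSO, and a normalized change of -0.11 ± 0.16. TC17002594, of chromosome 17, had 8.24 and 8.0 with nocodazole, against 6.16 and 6.29 with DMSO, a 3.71-fold rise (limma adjusted p = 0.00696). TC01004998, of chromosome 1, was the most even within groups, with 9.59 and 9.62 with nocodazole, against 7.92 and 7.91 with DMSO, a 3.23-fold rise (limma adjusted p = 0.0031). All of these lie in stretches of ids that hold no symbol, described further on.

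The other 2 that rose lie among annotated clusters. TC17001394 had 8.18 and 7.89 with nocodazole, against 6.68 and 6.45 with DMSO, and a log2 change of 1.47 ± 0.16 (limma adjusted p = 0.0316). The next id on chromosome 17 is a cluster with several gene symbols, which had a change of 0.80 ± 0.20 (limma adjusted p = 0.349). The id before it had deposited values of 4.21 and 3.61 with nocodazole, below the background medians, against 5.49 and 5.40 with DMSO. TC06000259 had 8.91 and 8.85 with nocodazole, against 7.75 and 7.86 with DMSO, and a log2 change of 1.08 ± 0.12 (limma adjusted p = 0.0361). The next cluster, that of the long non-coding RNA gene LINC01012, lay below the level rule and had a change of -0.02 ± 0.23.

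Of the 2 members that fell, TC05003122 of chromosome 5 had the wider gap, with 5.64 and 6.14 on the nocodazole arrays, against 9.08 and 8.25 on the DMSO arrays. Its log2 change was -2.77 ± 0.28 (limma adjusted p = 0.0174), 6.82-fold lower with nocodazole, and its nocodazole values lay only 1.20 above background at the nearest, so it is among the members close to the edge of the rule. The next id, TC05003123, is not a member and did not pass the test. It had 5.0 and 5.66 with nocodazole, against 7.06 and 6.96 with DMSO, a change of -1.68 ± 0.23 (limma adjusted p = 0.0777). TC02004860, of chromosome 2, had 6.82 and 6.87 with nocodazole, against 8.17 and 7.93 with DMSO, a change of -1.21 ± 0.15 (limma adjusted p = 0.0446). 4 further members had the next smallest p among those lower and did not pass the test: TC13001319, TC01004608, TC07002326 and TC11002788 had changes of -1.04, -0.99, -1.07 and -0.89, with limma adjusted p of 0.0802, 0.082, 0.101 and 0.103.

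**Figure D1:**
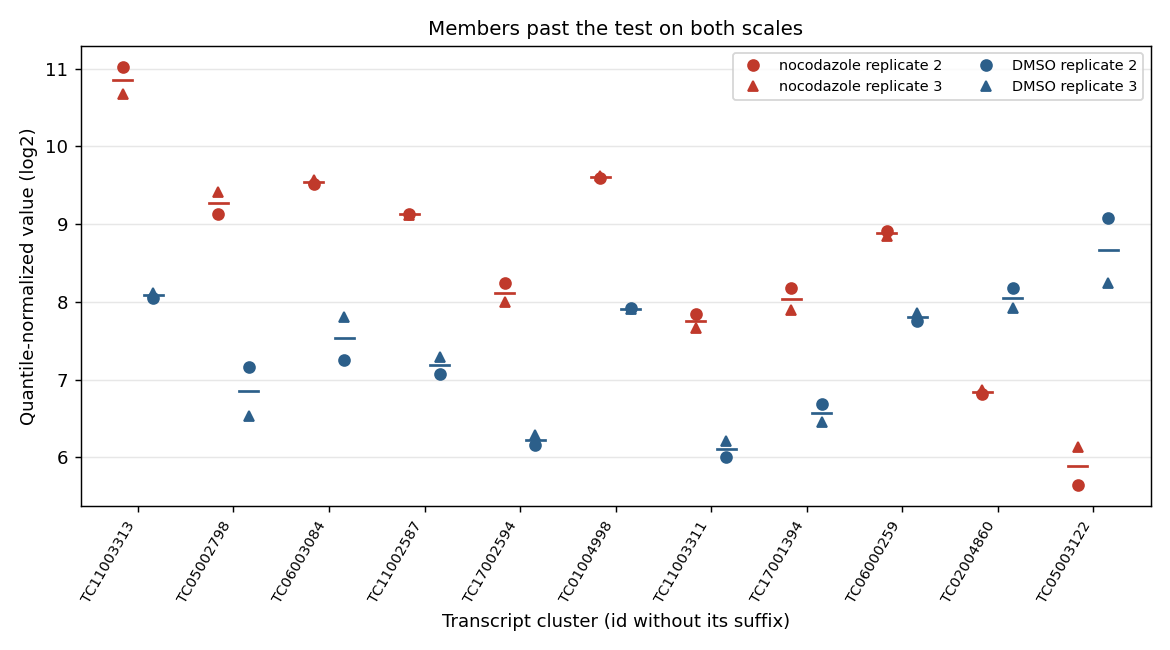
Quantile-normalized log2 values (vertical axis) of the 11 members that passed the test on both scales (horizontal axis, ordered from the largest rise to the largest fall), nocodazole arrays in red at the left of each position and DMSO arrays in blue at the right, circles for replicate 2, triangles for replicate 3 and lines for group means. The groups do not overlap in any of the 11, and for TC11003313 the nocodazole arrays read 11.02 and 10.68, against 8.05 and 8.12 for the DMSO arrays.

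The number called moved both ways with the fit. With any 1 array left out, limma called 0 members at an adjusted p under 0.05. Such a fit has 1 array in a group and assumes that it varies as the other group does, and 255 to 402 members (2.61% to 4.11%) had an unadjusted p under 0.05 in 1 direction on both scales, where 1.89% to 3.2% of all clusters did. Without a trend of variance with level in the fit, limma called 0 members as well, with adjusted p from 0.12 to 0.512 for the 11. In that fit 291 members were higher (2.98%) and 168 lower (1.72%) at an unadjusted p under 0.05, where 3.48% and 3.44% of all clusters were, so the members' share lay below that of all clusters in both directions. Fitting only the clusters that pass the level rule gave 15 members higher and 9 lower on both scales (0.153% and 0.0921%), where 0.123% and 0.144% of the clusters fitted were called. After median centring in place of quantile normalization, 3 members were called higher (0.0307%, where 0.049% of all clusters were). There 1 was called lower (0.0102%, where 0.0049% of all clusters were), and all 4 are from the 11.

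Within a chromosome code, the ids of the annotated clusters run in a fixed order. In the gene table used here, 10362 of 10399 annotated clusters with a known strand (99.6%) had the strand of their run of ids. A forward run is followed by a reverse run, and the switch in each code was placed where strand agreed best. That share is therefore the highest such a split allows. Of consecutive pairs within a run, 10309 of 10357 (99.5%) were in ascending position. The tails of ids described next were left out of both counts. In 21 of the 22 codes with such runs, a long stretch of ids in which no cluster has a symbol comes next, and then a short tail; the exception is code 20, where the table ends. The members divide into 2187 in forward runs, 2115 in reverse runs, 5321 in the symbol-free stretches (54.5%), 85 in tails, and a remainder of 36 between the runs and 28 on the mitochondrial or alternate-haplotype codes. 9 of the 11 members that rose or fell lie in the symbol-free stretches, where no annotated neighbour can be named. The order of ids in those stretches could not be checked against positions. A neighbour there is near in id, and nearness along the chromosome is not shown. The median change of the members was 0.05 in the forward runs and 0.04 in the reverse runs, against 0.00 in the symbol-free stretches. The quartiles were wide beside those medians: -0.10 to 0.20 in the forward runs, -0.11 to 0.19 in the reverse runs and -0.14 to 0.15 in the symbol-free stretches.

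Of the 22 places next in id to the 11 members, 5 hold a cluster that passes the level rule. In 3 of the places the cluster had a log2 change of at least 1 in the same direction as the member. Among all clusters the shares with a change of that size were 0.466% higher and 0.315% lower. One of the 3 is TC05003123, and the others are both TC11003312, which is next to 2 members, so the 3 places hold only 2 distinct clusters. The 11 members were chosen by their changes on the same arrays, so these counts are a description and were not tested.

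**Figure D2:**
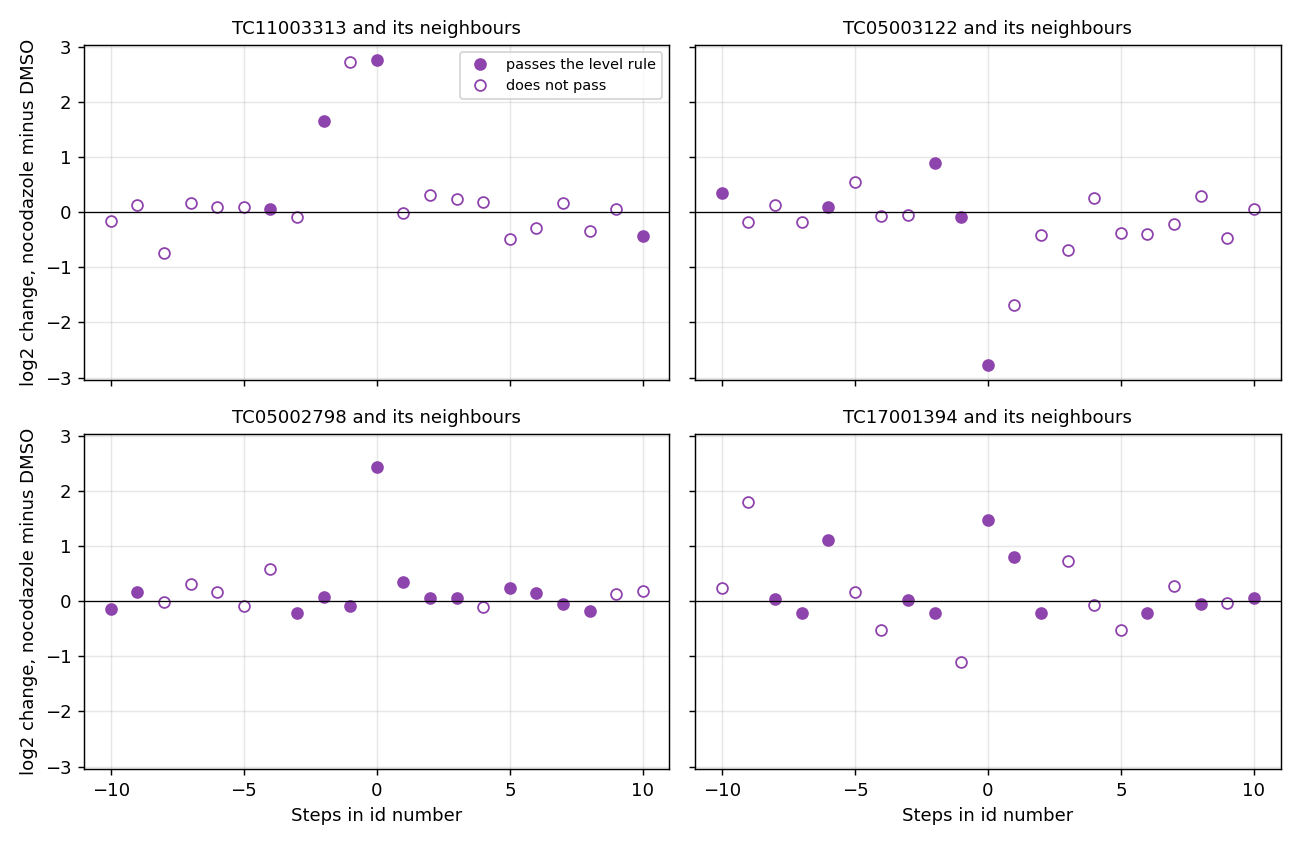
Log2 change after quantile normalization, nocodazole minus DMSO (vertical axis), of 4 members that rose or fell and of the clusters up to 10 ids to either side (horizontal axis, steps in id number), filled where a cluster passes the level rule and open where it does not, some open ones lying below background. TC11003313 (2.76) and TC05003122 (-2.77) have a neighbour with a change over 1 of the same sign, and the neighbours of TC05002798 lie nearer 0.

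The likeness of change between neighbouring ids was measured with every id counted and again with only clusters of 1 id, a restriction chosen after the values with every id were seen. In the forward and reverse runs, a member was paired with an adjacent id, on either side, that has a gene symbol and passes the level rule. The changes of these pairs had a Pearson's r of -0.000997 over 2854 pairs with every id, and of 0.00664 over 2649 pairs with clusters of 1 id. Adjacent members of the symbol-free stretches had an r of 0.0774 over 2062 pairs with every id, and of 0.0746 over 2047 pairs with clusters of 1 id. For adjacent members in the forward and reverse runs r was 0.276 over 995 pairs with every id, and 0.0723 over 576 pairs with clusters of 1 id. These are descriptions across clusters, which are not independent, since clusters with the same values stand at several places in the table and all pairs share the 4 arrays.

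**Figure D3:**
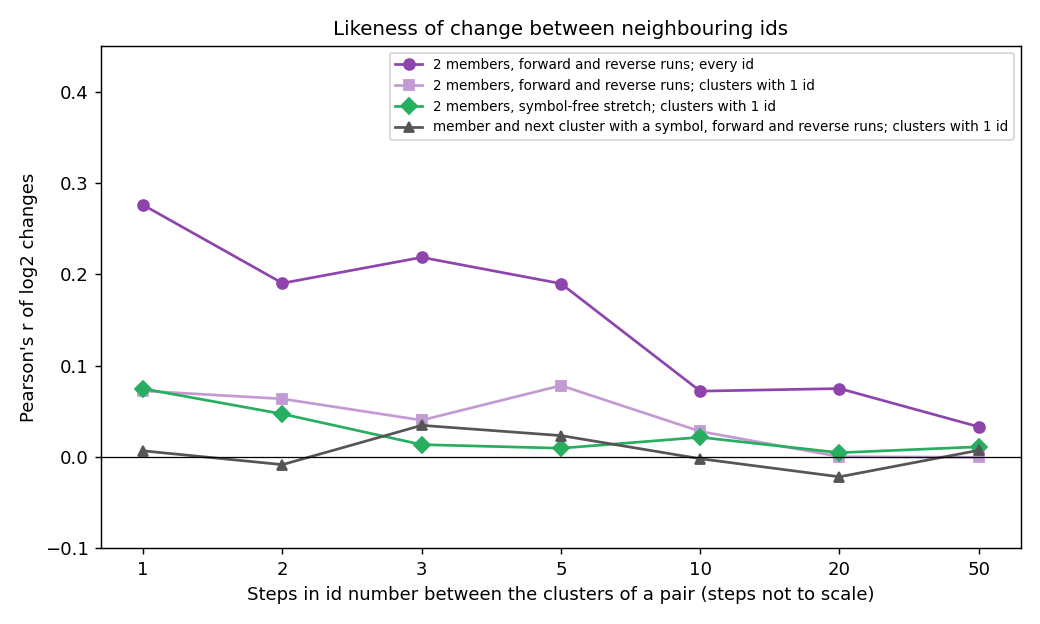
Pearson's r between the log2 changes of 2 clusters (vertical axis) against the number of id steps between them (horizontal axis, steps not to scale). Pairs of members in the forward and reverse runs are shown with every id and with clusters of 1 id. The other pairs are of members in the symbol-free stretches, and of a member and an expressed cluster with a symbol. At 1 step, r is 0.276 for members of the forward and reverse runs with every id, and 0.0723, 0.0746 and 0.00664 in the sets of clusters with 1 id.

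The restriction leaves out clusters whose values recur under several ids. 199 members have more than 1 id, 71 of them on more than 1 chromosome code and 21 shared with a cluster that has a symbol. The one with the most, TC01001060, has 27 ids on 8 codes and a change of 0.08 ± 0.17. In runs of at least 8 consecutive ids that are all members, a selection made after the values were seen and therefore given without a test, 9 runs lie in the forward and reverse runs and 33 in the symbol-free stretches. Run medians ranged from -0.11 to 0.60 among the 9 and from -0.17 to 0.33 among the 33. The 3 highest are TC07000285 to TC07000292, between the genes ADCY1 (adenylate cyclase) and IGFBP1 (a binding protein of insulin-like growth factors), TC01001875 to TC01001882, between PRSS38 (a serine protease) and WNT3A (a Wnt ligand), and TC07000361 to TC07000369, next to the zinc finger gene ZNF727. Their median changes were 0.60, 0.58 and 0.47.

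The 25 places of those 3 runs hold 18 distinct members, 15 of which have more than 1 id and 5 of which stand in more than 1 of the runs, so the runs are not separate observations. In the chromosome 7 run that begins at TC07000285, the run median was 8.68 and 8.83 on the nocodazole arrays, against 7.96 and 8.15 on the DMSO arrays. For all 8 places of that run both nocodazole arrays lay above both DMSO arrays, where 16.8% of all clusters did. One of its clusters, shared with chromosome 1 and there named TC01001879, had 9.11 and 9.14 with nocodazole, against 8.41 and 8.44 with DMSO, a change of 0.71 ± 0.12. After quantile normalization, 16 of the 18 members had a change above 0, where 49.7% of all clusters did. Both nocodazole arrays lay above both DMSO arrays in 14 of them, where 16.8% of all clusters did. The choice of the highest runs itself favours these counts. On the deposited scale 10 of the 18 had a change above 0 (8.53% of all clusters did) and 2 had both nocodazole arrays the higher (1.77% of all clusters). Their median change was 0.50 after quantile normalization and 0.02 on the deposited scale, and none is among the 11 members that rose or fell. The genes that flank the first 2 runs had changes of -0.12 (ADCY1), 0.34 (IGFBP1), 0.28 (PRSS38) and -0.18 (WNT3A).

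The rule asks for the comparison by chromosome code, and the members' median change differed little between codes. Over the 21 codes with at least 50 members it ran from -0.01 on chromosome 2 (723 members) to 0.08 on chromosome 4 (341 members), a range of 0.0856. The same range was 0.0481 for the expressed clusters with a symbol, and 0.0269 for all clusters. For single arrays, the code medians spanned 0.0827 to 0.149 over the 4 pairings of a nocodazole with a DMSO array, 0.152 between the 2 nocodazole arrays and 0.109 between the 2 DMSO arrays. The quartiles of chromosome 4 were -0.11 and 0.20. Its 4 pairings of a nocodazole with a DMSO array gave medians of 0.05, 0.12, 0.01 and 0.07, and for chromosome 20, with 92 members, they ran from -0.10 to 0.17.

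The members' median was above 0 on 18 of 21 codes and above that of the clusters with a symbol on all 21. The sign depends on which arrays are paired: the code medians were above 0 on 21 codes when nocodazole replicate 2 was set against DMSO replicate 3, and on 2 codes when nocodazole replicate 3 was set against DMSO replicate 2. On chromosome 4 the members had the highest median of any code, while its clusters with a symbol had their lowest, -0.04. The members that rose are 3 on chromosome 11, 2 each on chromosomes 6 and 17, and 1 each on chromosomes 1 and 5, and those that fell are on chromosomes 2 and 5. On the deposited scale the code medians ran from -0.45 on chromosome X to -0.37 on chromosome 4.

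**Figure D4:**
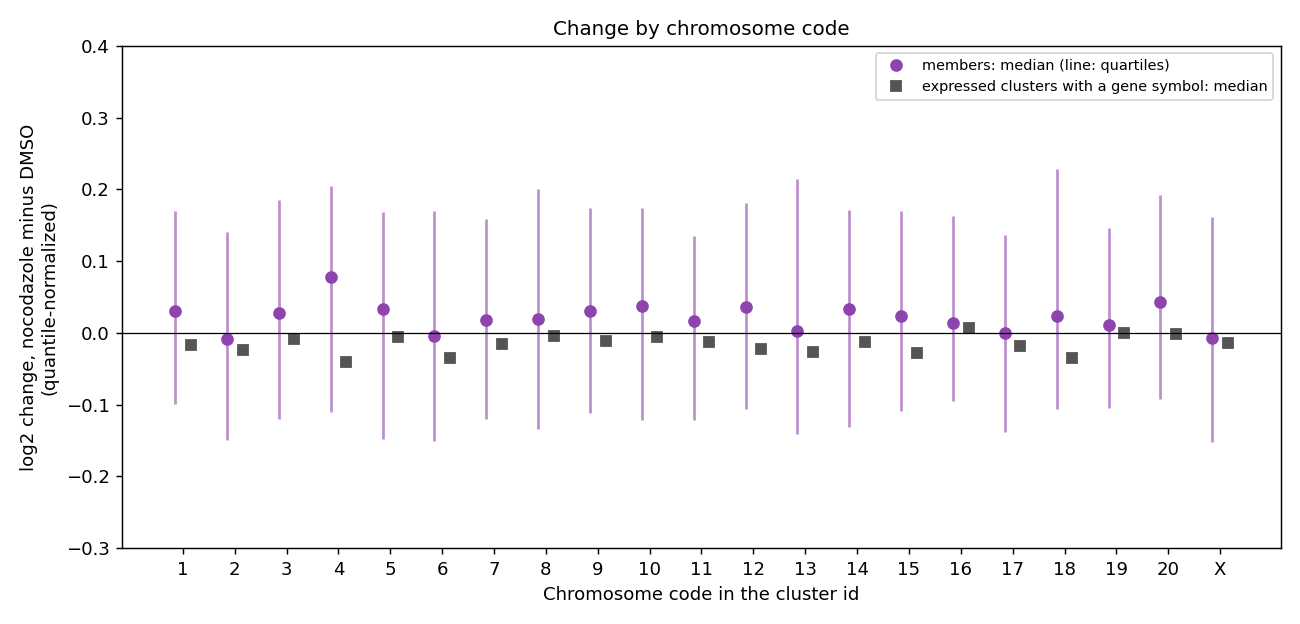
Log2 change after quantile normalization, nocodazole minus DMSO (vertical axis), by chromosome code (horizontal axis). Purple circles are medians over members with lines from the lower to the upper quartile, and grey squares are medians over expressed clusters with a gene symbol. The members' medians run from -0.01 to 0.08, well within the quartiles of any code.

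The share of clusters without a symbol that passed the level rule did differ between codes, from 14.2% on chromosome 13 (1111 clusters) to 49.0% on chromosome 19 (1114 clusters), with 44.8% on chromosome 16 and 39.6% on chromosome 17. This follows from the rule and says nothing about nocodazole. The codes not compared were the mitochondrial one with 21 members, Y with 35, an alternate haplotype of chromosome 17 with 6, and 71 members on several codes. The table ends within chromosome 20, and chromosomes 21 and 22 were not analysed here.

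All 22 clusters of the mitochondrial code are members, one of them sharing its values with TC11001412 of chromosome 11. Mitochondrial DNA is transcribed as long precursors from both strands, outside the nucleus. The median deposited value of these 22 was 12.5 and 12.9 on the nocodazole arrays, against 12.7 and 12.8 on the DMSO arrays, and the groups overlapped. Their median change was 0.11 after quantile normalization and -0.05 on the deposited scale, with 18 of 22 above 0 and 2 at 0 on the first scale (within 1e-09), and 5 above 0 on the second. The deposited median of all clusters was -0.42, and that of the 72 members with a mean value of 12 or more, 14 of them mitochondrial, was -0.10, and these values were not tested against each other.

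The 3 mitochondrial clusters with the largest changes are among the dimmer ones. TC0M000019 had 8.65 and 8.95 with nocodazole, against 7.57 and 8.03 with DMSO, a change of 1.00 ± 0.18 (limma adjusted p = 0.145). TC0M000011 had 9.82 and 10.05 with nocodazole, against 9.07 and 9.14 with DMSO, a change of 0.83 ± 0.13 (limma adjusted p = 0.103). TC0M000026 had 9.90 and 10.36 with nocodazole, against 9.26 and 9.50 with DMSO, a change of 0.75 ± 0.17 (limma adjusted p = 0.28). In each the nocodazole arrays were the higher, and none of the 22 passed the test on both scales.

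**Figure D5:**
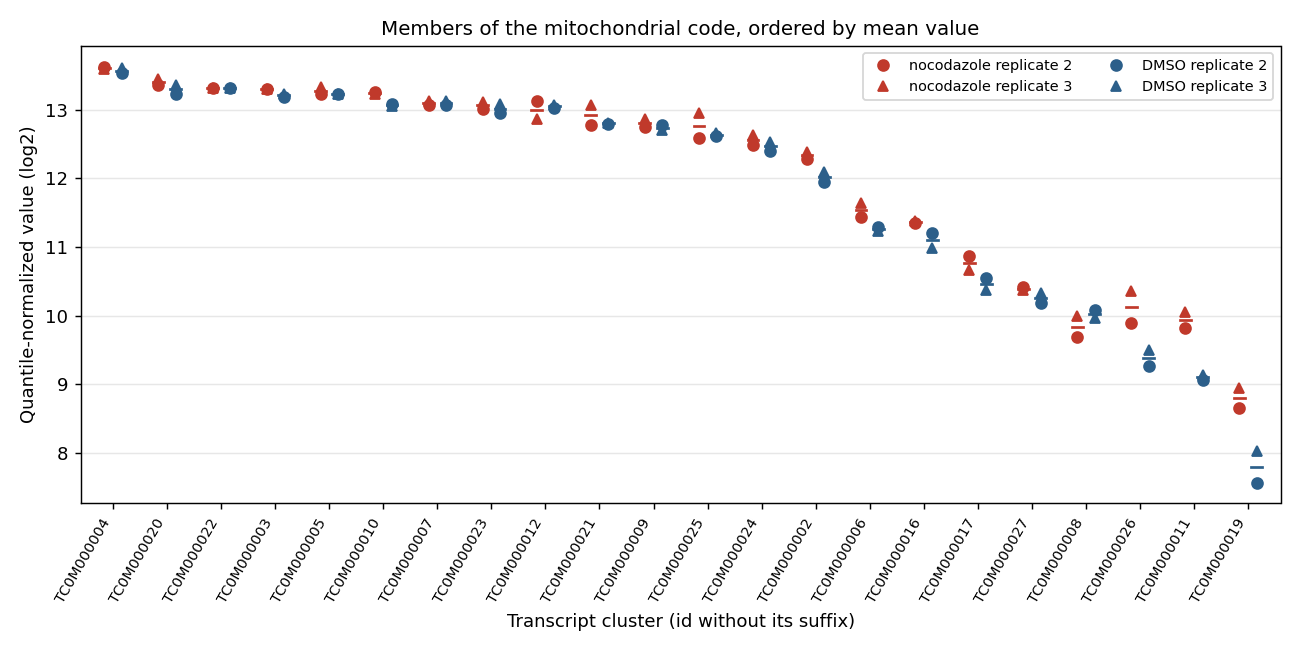
Quantile-normalized log2 values (vertical axis) of the 22 members of the mitochondrial code (horizontal axis, ordered by mean value), nocodazole arrays in red at the left of each position and DMSO arrays in blue at the right, with lines for group means. The groups lie close together at the bright end and apart for TC0M000026, TC0M000011 and TC0M000019, the last with 8.65 and 8.95 for nocodazole, against 7.57 and 8.03 for DMSO.

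Of the 5 members with the highest mean deposited values, TC01002863 had 13.999 and 14.04 on the nocodazole arrays, against 13.94 and 14.14 on the DMSO arrays. TC02000740 (5 ids), TC14001108, TC08001305 and TC0M000004 follow. Their changes lay between -0.00 and 0.04 after quantile normalization, a step that fixes the values at the top of each array, and between -0.07 and -0.02 as deposited.

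Replicates of the members differed by a median of 0.201 between the nocodazole arrays and 0.22 between the DMSO arrays, against 0.147 and 0.168 for the expressed clusters with a symbol. The widest disagreements were in TC06000485, which had 7.71 and 6.18 with nocodazole, against 7.11 and 6.78 with DMSO, in TC16000248, which had 5.49 and 6.49 with nocodazole, against 5.60 and 7.10 with DMSO, and in TC03001672, which had 8.86 and 8.55 with nocodazole, against 8.39 and 6.99 with DMSO. TC03001672 had a change of 1.02 ± 0.38 (limma adjusted p = 0.609), with DMSO replicate 3 well below the other 3 arrays. Called members were found in the upper levels: of the 5 equal parts of the members by mean value, the lowest 3 held 0 of the 11, the fourth 5 and the brightest 6.

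As a whole, the members' median log2 value was 6.53 and 6.49 on the nocodazole arrays, against 6.51 and 6.48 on the DMSO arrays, a difference of 0.02 (exact two-sided permutation p = 0.667; the smallest that 2 arrays against 2 allow is 0.333). The members' median lay below that of the expressed clusters with a symbol by 0.23 and 0.29 with nocodazole, against 0.26 and 0.32 with DMSO, and this gap differed between the treatments by 0.03 (exact two-sided permutation p = 0.667). After quantile normalization both nocodazole arrays lay above both DMSO arrays in 1827 members (18.7%, where 16.8% of all clusters did) and below them in 1484 (15.2%, where 17.9% did). On the deposited scale, with its array-wide shift, they lay above in 108 members (1.11%, where 1.77% of all clusters did) and below in 5951 (60.9%, where 53.4% did). For the expressed clusters with a symbol the shares were 15.7% above and 21.7% below after quantile normalization. As deposited they were 0.681% above and 79.2% below.

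Members next to genes of the senescence secretory and cell cycle programmes were looked up from a list of 51 genes, of which 48 were found in the table. 10 of these have a member as the next id, and none of the 10 members passed the test. LMNB1, which encodes lamin B1 of the nuclear lamina, fell by 1.17 on the log2 scale (SE 0.12; limma adjusted p = 0.0237), while its neighbour TC05000605 had 5.87 and 6.29 with nocodazole, against 5.71 and 6.01 with DMSO, a change of 0.22 ± 0.21. EDIL3, which encodes a secreted integrin-binding protein, fell by 1.11 (SE 0.13; limma adjusted p = 0.0361), and its neighbour TC05001559 had 8.70 and 8.66 with nocodazole, against 8.40 and 8.44 with DMSO, a change of 0.26 ± 0.12 (limma adjusted p = 0.706). In both cases the member's change has the opposite sign to the gene's after quantile normalization only, and neither member passed the test. On the deposited scale, with its array-wide shift, TC05000605 had -0.21 and LMNB1 -1.65. TC05001559 had -0.22 and EDIL3 -1.58 on that scale.

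Among the replication genes, MCM6, MCM2 (both of the replicative helicase) and GINS2 (of the complex that activates it) had changes of -0.92, -0.45 and -0.92, against -0.14, -0.05 and 0.12 for the members next to them. NUSAP1, a spindle protein, and CCNB1, the mitotic cyclin B1, had changes of -1.04 and -0.41, against -0.14 and -0.53 for their members. TC05000297, next to CCNB1, had 5.89 and 5.60 with nocodazole, against 6.64 and 5.90 with DMSO, so that the higher nocodazole array and the lower DMSO array were almost equal (limma adjusted p = 0.744). The p53 targets CDKN1A, a cell cycle inhibitor, and MDM2, the ligase that degrades p53, had changes of 0.42 and 0.29, and their members -0.03 and 0.03. IL6, a senescence cytokine that itself lay below the level rule, had 0.61, and its member TC07000138 had 0.07. None of these 8 genes and none of their members passed the test after quantile normalization (limma adjusted p of 0.105 and above).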

How the data were processed

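RNA from 4 cultures of U2OS cells was measured on 1 array each, 100 ng of total RNA per the labels. The table as deposited holds a log2 level for each row and array; per the submitters' processing notes they were made with Partek 7.0 and RMA on build hg19, with settings not given in the sources used. The table held 65535 rows, with 62540 transcript clusters.

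Identical rows were counted once (61190). Values were quantile-normalized (normalizeQuantiles) and tested with limma 3.58.1 in R 4.3.3 (lmFit, eBayes, trend = TRUE), two-sided, 2 nocodazole against 2 DMSO arrays, with Benjamini-Hochberg adjustment over all 61190 clusters and a threshold of 0.05; summaries used Python 3.11.15. The steps were also run on simulated data with the same noise for every cluster. Real replicates differed more for the members than for the expressed clusters with a symbol, so that run does not measure error rates here. The series calls the samples biological replicates; the number of arrays limits the precision.

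The members, lists and the choice of scales were made with earlier results of these data known. Members were named if called on both scales (up to 12 each way), next by p where under 6 were called in a direction, by highest mean value, by nearness to the threshold, by widest replicate disagreement, or as neighbours of listed genes. Symbols came from the platform annotation, with no name taken from clusters with several symbols. Order along chromosomes came from a table of gene promoters on another build, so no coordinates or sequences are given. For chromosome 8, which had no strand in that table, positions came from a RefSeq gene table, and it is not in the counts of strand and order. The same-numbered arrays' deviations from their group means correlated at 0.12 over all clusters and 0.261 over the members after quantile normalization, and at 0.23 and 0.412 as deposited; with 2 pairs this does not settle whether the numbers pair the arrays, and no block was used. Other scales, thresholds, fits and left-out arrays were tried as alternatives.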

Additional observations from a re-analysis of the deposited data

How the results depend on the processing

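On the deposited values, with their array-wide shift, limma called 19 members higher (0.194%, where 0.159% of all clusters were) and 1670 lower (17.1%, where 8.86% were), and the median change was -0.42. Of the expressed clusters with a symbol, 0.138% were called higher and 24.3% lower on those values. After median centring 3 were called higher and 1 lower. At a threshold of 2 above background 1 was lower. Fitting only the expressed clusters gave 27 higher and 9 lower (0.276% and 0.0921% of the members, where 0.204% and 0.144% of the clusters fitted were), or 15 and 9 on both scales. Without a trend of variance with level, 0 were called in either direction (291 higher and 168 lower at an unadjusted p under 0.05). Leaving out each array in turn, the counts called in either direction, on 1 scale and on both, ran from 0 to 0 (limma; 255 to 402 members had an unadjusted p under 0.05 on both scales), the range of the chromosome-code medians from 0.0622 to 0.123, the median change from -0.01 to 0.06, and the gap to the clusters with a symbol from 0.0109 to 0.0725. With the replicate block, 14 members were called higher and 2 lower on both scales (0.143% and 0.0205%, where 0.0882% and 0.0229% of all clusters were), and these 16 include the 11. With 2 arrays a group, no permutation p under 0.333 can be reached, and a member near background has only a narrow range in which it can be lower.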

Other observations

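The level rule kept out 28667 distinct clusters without a symbol, and 10 of these were higher and 2 lower with nocodazole by limma's adjusted p under 0.05 on both scales. By the same rule 0.0637% of all clusters were higher and 0.0196% lower. TC15000814 and TC04000376, both among the 10, were above the level threshold on 0 nocodazole and 0 DMSO arrays. Another of the 10, TC04002067, of chromosome 4, was above the level threshold on both nocodazole arrays and on no DMSO array. Its deposited log2 values were 7.72 and 7.98 on the nocodazole arrays, against 3.38 and 2.89 on the DMSO arrays. On the DMSO arrays it lay below the background medians. Against those medians in place of its own DMSO values, it was at least 10.8-fold higher with nocodazole on the deposited scale. TC07002461 and TC07000558, both of chromosome 7 but in different stretches of ids, had almost the same deposited values. These were 8.33 and 8.45 with nocodazole, against 5.60 and 6.24 with DMSO, for TC07002461. For TC07000558 they were 8.37 and 8.47 with nocodazole, against 5.78 and 6.24 with DMSO. Of the 2 that were lower, TC14001147 of chromosome 14 had deposited values of 4.28 and 4.37 with nocodazole, against 7.0 and 6.68 with DMSO.

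TC11003298, 13 ids before TC11003311, was lower on both scales. Its deposited values were 4.86 and 4.84 with nocodazole, against 7.41 and 6.87 with DMSO, and its change after quantile normalization was -1.88. Clusters of both directions thus stand within the same short stretch of ids on chromosome 11. Over all clusters without a symbol, 126 were above the level threshold on both nocodazole arrays and on no DMSO array, and 163 on both DMSO arrays and on no nocodazole array. The same counts over clusters with a symbol are not given, so these are a description.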
